A study of Mus musculus with 4 samples.

Results

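The locus from Shh to Lmbr1 on mouse chromosome 5 was examined for chromatin accessibility in early forelimb buds. Shh (ENSMUSG00000002633.3) encodes the secreted signal of the polarizing region at the posterior limb bud margin. Lmbr1 (ENSMUSG00000010721.8) encodes a membrane protein, and Rnf32 (ENSMUSG00000029130.6) encodes a RING finger protein. Members were all accessible regions with their centre between 28733355 and 29754930 (mm9), which takes in Shh, Lmbr1 and 50 kb on each side. This interval of 1022 kb held 8 of 42613 regions at E9.5 and 13 of 46765 regions at E10.5.

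ATAC-seq uses a transposase that cuts open chromatin and tags it with sequencing adapters. The embryos were wild-type NMRI mice, with 2 biological replicates per stage, each replicate being both forelimb buds of a single embryo. The E9.5 samples, which the protocol also calls E9.75, carried adjoining trunk, whereas the E10.5 samples are described as limb buds without it, so stage and trunk tissue cannot be told apart. Hindlimb buds appear beside forelimb buds in the tissue label at E10.5, but the source label and protocol give forelimb buds. The files analysed here gave 1 combined list per stage, so no value per embryo entered, sequencing depth is unknown, and no difference between the stages was tested. A region absent from a list is one that did not pass the calling limits at that stage. Such a region need not be closed.

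Shh is transcribed away from Lmbr1, and its start faces a long stretch without other well-characterised genes. Expression of Shh in the limb bud mesenchyme depends on a single remote enhancer, the zone of polarizing activity regulatory sequence (ZRS), which lies in intron 5 of Lmbr1. Other enhancers, in the Shh introns and upstream, are known to act in the floor plate, brain and epithelia. CTCF, a DNA-binding protein found at domain boundaries, is known to bind at the ends of this domain. ETS factors are known to act through the ZRS downstream of FGF signaling, together with HAND2 and HOX proteins.

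The score of a region rests on the best p-value that MACS gave it in either replicate, as -log10 of p multiplied by 10, and its percentile here is the percentage of regions of the same list with a lower score. Scores grow with depth, so stages were set side by side by percentile. Regions were called shared when they overlapped the other list by at least 1 bp. Regions centred no more than 2.5 kb from a protein-coding start count as promoter-proximal, and the remainder as distal.

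The E10.5 list held 2 regions in Lmbr1 introns, both in intron 5 (29619490 to 29650341, 30852 bp), and the E9.5 list held none. The stronger one spanned chr5:29640911-29642257 (1347 bp), 848 kb upstream of the Shh start and 63.1 kb inside Lmbr1, with a score of 475.31. It lies in the intron known to hold the ZRS, although the lists do not mark that element. The weaker one lay 826 kb upstream of Shh, with a score of 100.27. The nearest E9.5 region to either was the one at the Lmbr1 start, 61.8 kb from the stronger region and 83.9 kb from the weaker.

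The central 300 bases of the stronger intron 5 region are shown because it is the highest-scoring region that the stages do not share, together with 3 further windows. The E10.5-only region beyond the 3′ end of Shh is shown for its CTCF consensus. The E9.5-only region is shown as the counterpart at the earlier stage, and the bases next to the Shh start as the promoter itself. All are mm9 sequence read on the minus strand, the strand of Shh and Lmbr1. Capitals mark matches to the strings searched, on either strand, or to the CTCF consensus.
Lmbr1 intron 5, stronger E10.5-only region, chr5:29641435-29641734: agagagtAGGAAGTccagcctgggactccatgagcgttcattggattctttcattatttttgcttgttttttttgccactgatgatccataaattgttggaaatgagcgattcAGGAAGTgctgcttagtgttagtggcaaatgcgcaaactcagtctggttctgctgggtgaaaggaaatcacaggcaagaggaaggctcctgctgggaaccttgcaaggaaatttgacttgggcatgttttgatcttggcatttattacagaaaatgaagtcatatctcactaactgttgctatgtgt
E10.5-only region beyond the 3′ end of Shh, chr5:28777768-28778067: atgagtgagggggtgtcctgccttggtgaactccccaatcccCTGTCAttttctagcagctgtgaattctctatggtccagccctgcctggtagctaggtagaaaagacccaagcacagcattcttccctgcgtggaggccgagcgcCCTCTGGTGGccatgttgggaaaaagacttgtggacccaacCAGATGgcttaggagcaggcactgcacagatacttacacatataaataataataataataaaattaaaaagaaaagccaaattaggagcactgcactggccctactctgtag
E9.5-only region upstream of Shh, chr5:28895021-28895320: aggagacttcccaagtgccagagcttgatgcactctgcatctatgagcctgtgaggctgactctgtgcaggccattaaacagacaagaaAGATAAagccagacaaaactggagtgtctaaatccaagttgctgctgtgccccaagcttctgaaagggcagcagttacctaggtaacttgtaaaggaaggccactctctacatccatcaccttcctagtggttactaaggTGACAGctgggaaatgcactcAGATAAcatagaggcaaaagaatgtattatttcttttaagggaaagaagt
Bases directly upstream of the Shh start, chr5:28793642-28793901: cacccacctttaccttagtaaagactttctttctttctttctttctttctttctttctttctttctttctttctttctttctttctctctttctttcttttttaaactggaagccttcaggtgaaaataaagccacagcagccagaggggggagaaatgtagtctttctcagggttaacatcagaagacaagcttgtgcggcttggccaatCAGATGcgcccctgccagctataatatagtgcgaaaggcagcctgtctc

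Short motifs of 10 factor families were searched on both strands in a central window of every region, 1 bp longer than the windows printed. The stronger intron 5 region held the ETS string AGGAAGT 2 times in this window, with the middle of the matches 34 and 140 bp from its centre, towards the Lmbr1 start. Of the 46765 E10.5 regions, 3742 (8%) held this string at least once and 189 (0.404%) at least 2 times. It was the only 1 of the 13 E10.5 regions of the locus with 2 or more. As 13 strings were searched in every region, a rare match to 1 of them can arise somewhere, and this was not tested. The third AGGAAGT of the region lay 417 bp from the centre. Over its 1347 bp, this region also held the E-box CATCTG 2 times, the MEIS string TGACAG 2 times, the SOX string ACAAAG 2 times and the CTCF string AGGTGGC once, all of them outside the central window. In their own central windows, 25.2%, 20.8%, 21.8% and 9.05% of E10.5 regions held these strings. No match in the 1347 bp was found for CCGGAAG of ETS factors, held by 5.37% of E10.5 regions, for CAATAAA of HOX13 factors, held by 5.54%, or for TGGGTGG of GLI factors, held by 7.26%. The FOX string TGTTTAC (3.66% of E10.5 regions), the GATA string AGATAA (9.74%), the CTCF string AGGGGGC (10.2%) and the SMAD strings TCTAGAC (2.14%) and, as a palindrome, GGCGCC (11.2%) had no match there either. These percentages, too, count only the central window of each region, which is shorter than the 1347 bp searched here. A missing match says only that these letters are not in the region. Elsewhere in the locus, CCGGAAG lay once in the central window of the E10.5-only region 624 kb upstream of Shh.

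**Figure D1:**
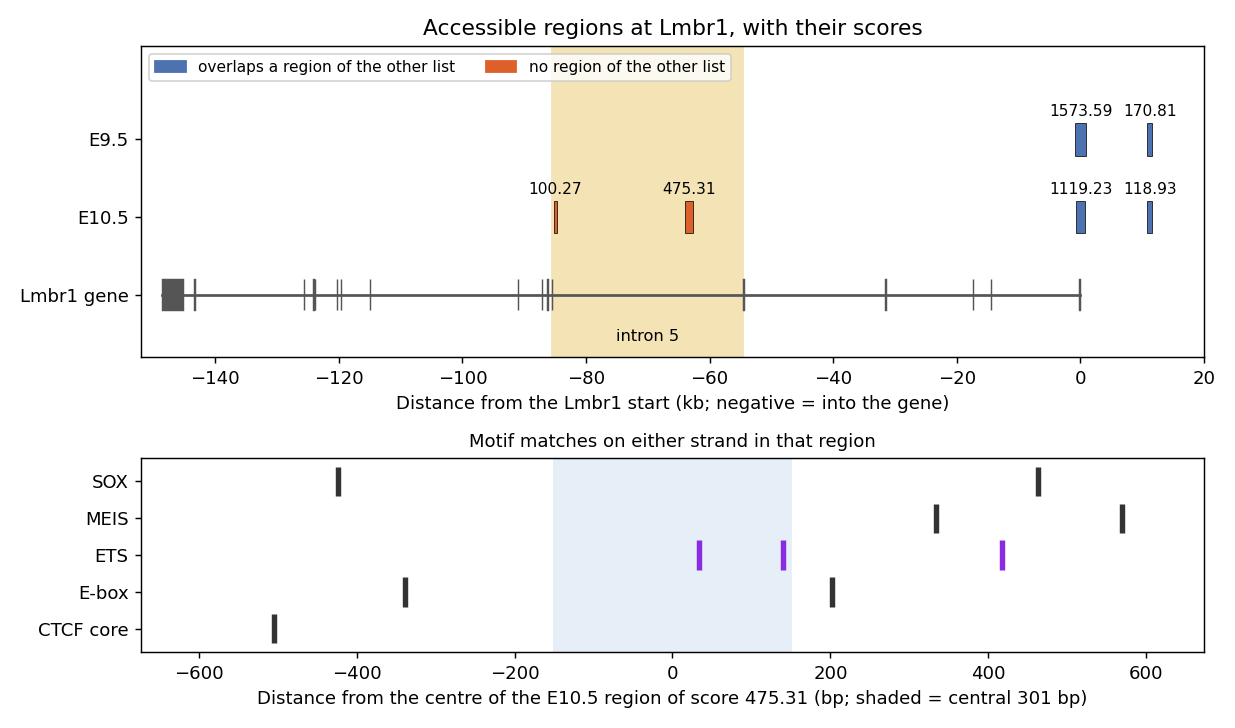
Top, the Lmbr1 gene with exons as bars and intron 5 shaded, and the regions of both lists with their scores, by distance from the Lmbr1 start in kb. The 2 regions in intron 5, with scores of 475.31 and 100.27, are in the E10.5 row alone. Bottom, positions of motif matches in the stronger region, in bp from its centre, with 2 of 3 ETS matches in the shaded central window.

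The stronger intron 5 region scored above 70.1% of the E10.5 list. It ranked higher among the regions without an E9.5 partner, above 92.1% of the 15573 distal ones, whose median score was 153.69 and median width 865 bp. The whole E10.5 list had a higher median score, 241.31, so the higher rank in part reflects the weaker set. The rank of the intron 5 region among all distal E10.5 regions is not given here. Of all E10.5 regions, 35.0% had no E9.5 partner, and of the distal ones 49.6%. In the score decile of the intron 5 region, 18.0% of all regions and 33.8% of distal regions were E10.5-only, so such a region was not rare. The weaker intron 5 region scored above 7.8% of its list.

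**Figure D2:**
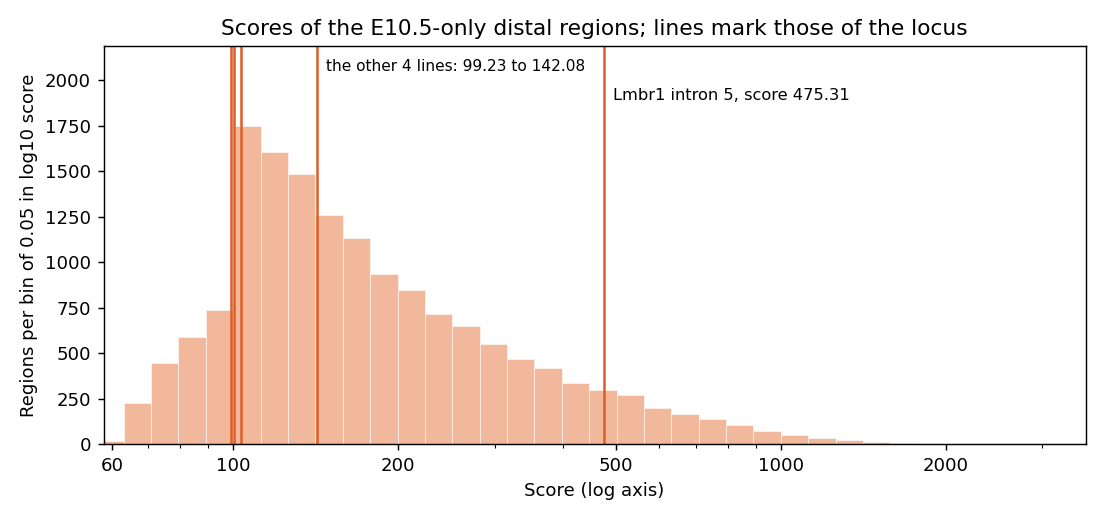
Histogram of the scores of the 15573 distal E10.5-only regions, on a log axis, with the 5 such regions of the locus as vertical lines. The stronger region in Lmbr1 intron 5 stands at 475.31, above 92.1% of them. The other 4, among them the weaker intron 5 region, lie between 99.23 and 142.08.

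In total, 5 of the 13 E10.5 regions of the locus had no E9.5 partner (38.5%, 95% Wilson interval 17.7 to 64.5%), near the 35.0% of the whole list. All 5 were distal, against 4 shared distal regions. At E9.5, 1 of 8 regions had no E10.5 partner (12.5%, 2.24 to 47.1%), where the whole list had 29.9% and its distal regions 40.3%. When the E10.5 list was cut by score to the 42613 regions of the E9.5 list, 3 of 11 E10.5 regions had no partner (27.3%, with an upper bound of 56.6%), beside 32.6% of the cut list, and the weaker intron 5 region and the one 488 kb upstream were no longer listed. These intervals cover counting error only and hold the percentages of the whole lists.

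**Figure D3:**
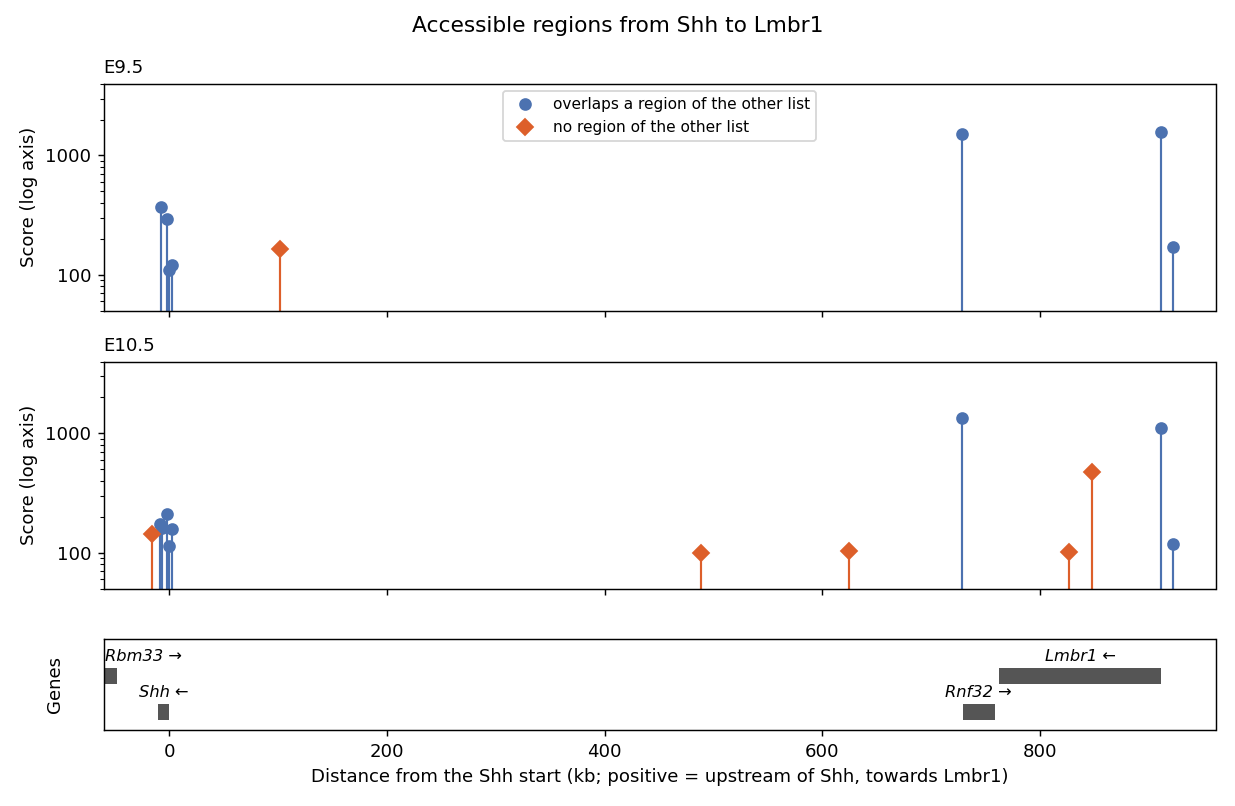
Score (log axis) of each accessible region by distance of its centre from the Shh start in kb, at E9.5 (top) and E10.5 (middle), with genes and their direction at the bottom. The middle of the locus is nearly empty at both stages, the starts of Rnf32 and Lmbr1 have the highest scores, and 5 E10.5 regions and 1 E9.5 region lack a partner.

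Between Shh and Rnf32 lie 729 kb that include the long non-coding RNA 9530036O11Rik and the predicted gene Gm10290, whose start had no region at either stage. Apart from the regions next to Shh and Rnf32, this stretch held 1 region at E9.5 and 2 others at E10.5. The E9.5-only region (chr5:28894744-28895596) lay 102 kb upstream of Shh with a score of 163.45, above 32.2% of its list. Its central window held the GATA string AGATAA 2 times, as did that of 1.07% of E9.5 regions, and 10.4% held it at least once. The MEIS string was there once, as in 21.5% of E9.5 regions. The E10.5-only regions lay 488 kb upstream (chr5:29281396-29282146, score 99.23) and 624 kb upstream (chr5:29417562-29418426, score 103.15). Both were among the weakest of their list, above 7.45% and 9.53% of it. The study's stringent limit corresponds to a score of 100, so these and the weaker intron 5 region stood close to it.

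Long stretches were without any region. At E9.5 the longest ran over 626 kb, from 28895597 to 29521618, and at E10.5 over 485 kb, from 28796768 to 29281395. The median gap between neighbouring regions was 21.1 kb at E9.5 and 24.2 kb at E10.5. Only 420 of 42570 E9.5 gaps (0.987%) and 433 of 46720 E10.5 gaps (0.927%) were at least as long. From the Rnf32 start to the Lmbr1 start, the E9.5 list was empty over 181 kb, and that is where both intron 5 regions of the E10.5 list lay.

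At Shh itself the lists largely coincided. Shh spans 28783355 to 28793641 (minus strand). The region over its start was weak at both stages, with a score of 108.46 at E9.5 and 114.2 at E10.5, above 11.1% and 15.2% of the lists. Among promoter-proximal regions it scored above 3.92% (E9.5) and 6.14% (E10.5). The starts of Rnf32 and Lmbr1 were strong by comparison, with scores of 1522.69 and 1573.59 at E9.5 and 1352.06 and 1119.23 at E10.5. They stood above 88.1 to 91.2% of their lists in all 4 cases. Shh is known to be expressed in few cells of the limb bud. In bulk tissue, fewer cells with an open site and less opening per cell cannot be told apart.

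Intron 1 of Shh held a region at both stages, 2.25 kb from the start with a score of 290.76 at E9.5 and 2.21 kb from it with 211.93 at E10.5. Another lay 2.75 kb upstream in the E9.5 list and 2.7 kb upstream in the E10.5 list, with scores of 120.9 and 157.6. Its percentile was 17.1 in the earlier and 32.2 in the later list. The second intron, known to hold enhancers of the ventral midline, had regions of different shape at the stages. The E9.5 list had a single region of 2630 bp (chr5:28784344-28786973, score 372.44) from the third exon into this intron. The E10.5 list had 2 shorter ones there, of 1016 bp over the third exon (score 175.27) and 1217 bp in the intron (score 161.42). The E9.5 region scored above 59.8% of its list, and the E10.5 regions above 37.1% and 33.3% of theirs. They overlapped it by 913 and 691 bp.

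**Figure D4:**
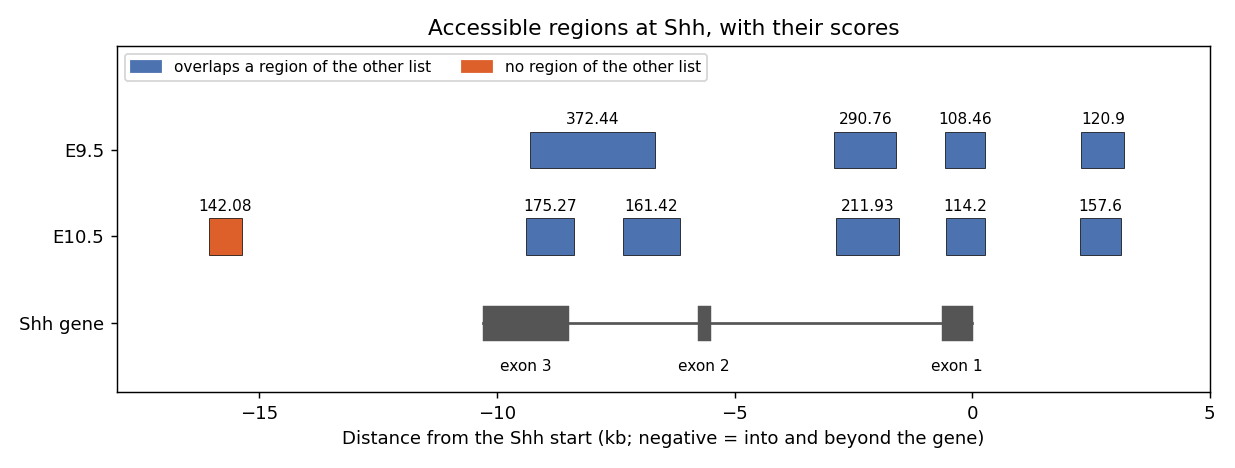
Regions of both lists around Shh as boxes, with their scores, by distance from the Shh start in kb, above the exons of the gene. The E9.5 region at the third exon and intron 2 faces 2 E10.5 regions, and the leftmost E10.5 region (score 142.08) has no E9.5 partner.

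Beyond the 3′ end of Shh, 15.7 kb from its start, the E10.5 list held a region of 695 bp (chr5:28777570-28778264, score 142.08, percentile 27) whose nearest E9.5 neighbour was 6.08 kb away. A match to the CTCF consensus of 10 letters lay at -1 bp from its centre. The other capitals in its printed window are 1 E-box and 1 MEIS string, and those upstream of the Shh start are 1 E-box. This consensus was added to the search after the sequences had been read. Its matches in the other E10.5 regions of the locus are not reported here. It was found in 9.86% of all E10.5 regions, 12.4% of distal ones and 8.24% of distal E10.5-only ones. The shorter CTCF string AGGGGGC lay in the shared region 11.2 kb beyond the Lmbr1 start, within the non-coding RNA 4632411P08Rik. That region had a score of 170.81 at E9.5 and 118.93 at E10.5, and the string was found in 12.1% and 10.2% of the lists. The other short CTCF string, AGGTGGC, lay in the central window of the region over the Lmbr1 start at both stages. In such windows it was found in 9.17% of E9.5 and 9.05% of E10.5 regions. Outside central windows, short CTCF strings also lay in regions within Shh at both stages and in the E10.5-only region 624 kb upstream.

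**Figure D5:**
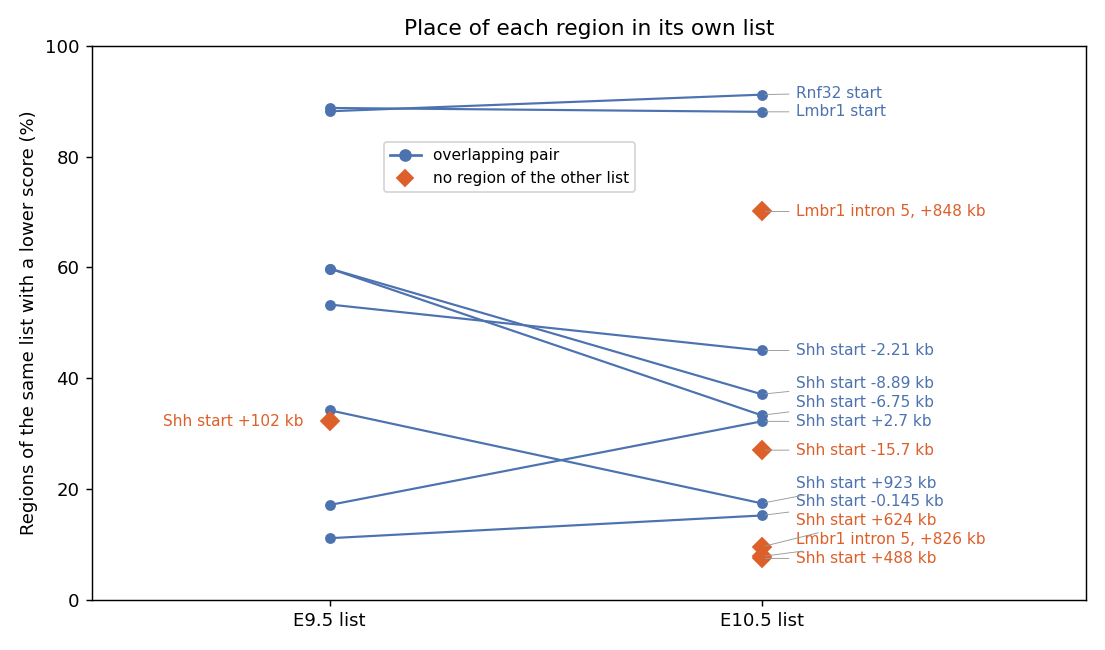
Percentage of regions of the same list with a lower score, for each region of the locus at E9.5 (left) and E10.5 (right), with overlapping pairs joined. The starts of Rnf32 and Lmbr1 stay near the top of both lists, and the region at the third exon and intron 2 of Shh stands at 59.8 and faces 37.1 and 33.3. The Lmbr1 intron 5 regions, in the E10.5 list alone, stand at 70.1 and 7.8.

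Just outside the interval, both lists resumed with shared regions at the starts of Rbm33 (scores 1523.91 and 1539.3, E9.5 first) and Nom1 (639.34 and 556.99), and then near Mnx1. The density of regions inside was 0.783 per 100 kb at E9.5 and 1.27 at E10.5, against 1.61 and 1.76 over all chromosomes. The GC content of the interval, 43.1%, was close to the 42.5% of chromosome 5. The landscapes of 2 other limb signaling genes were denser than the interval from Shh to Lmbr1 at both stages. They held 2.26 (E9.5) and 5.09 (E10.5) regions per 100 kb around Grem1, and 1.31 and 3.2 around Bmp2. From Grem1, which encodes a BMP antagonist, to Fmn1, whose introns hold Grem1 enhancers, 530.9 kb held 12 E9.5 and 27 E10.5 regions. From Fermt1 to Hao1, around the BMP ligand gene Bmp2, there were 23 and 56 in 1750 kb. E10.5-only regions made up 16 of 27 (59.3%, 40.7 to 75.5%) and 38 of 56 (67.9%, 54.8 to 78.6%), against 38.5% (17.7 to 64.5%) from Shh to Lmbr1. Over all chromosomes 35.0% of E10.5 regions and 49.6% of distal ones had no E9.5 partner. The intervals given count all regions, overlap one another and treat neighbouring regions as independent, so they are no test against the whole list. Most regions around Grem1 and Bmp2 were distal, so the 49.6% is the closer comparison. Among distal regions alone, 16 of 23 (Grem1), 38 of 50 (Bmp2) and 5 of 9 (Shh to Lmbr1) were E10.5-only, beside the 49.6%.

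Of 21 Hedgehog pathway genes listed, 20 were matched, 18 had a promoter-proximal region at both stages and 2, the ligand genes Ihh and Dhh, at E9.5 only. Among 22238 protein-coding genes, 61.5% had one at both stages, 3.75% at E9.5 only and 1.11% at E10.5 only. Of the 18 genes, 7 stood at a higher percentile in the E10.5 list and 11 at a lower one, with medians of 81 (E9.5) and 81.8 (E10.5). Evc and Evc2 had the same scores (709.69 at E9.5 and 439.66 at E10.5), and both count among the 18. The split over all genes is not given here. The receptor gene Ptch1 scored 3100 in the E9.5 list, a value that 682 regions of that list share, and 2203.02 in the E10.5 list, above 98% and 96.9% of the lists. Gli1, a target and mediator of the signal, scored 2477.4 and 833.06, above 95.8% and 82.5% of the lists. Hhip, which encodes a Hedgehog-binding inhibitor, scored 912.03 and 351.2, above 78.1% and 62.1%. Gli2 and Gli3, which encode the other GLI factors, stood at 95.7 and 98.1 and at 98 and 99.8, and the co-receptor gene Boc at 83 and 89.5. Gli3 also had the shared score of 3100 at E9.5, with 161 regions above, so its 98 is the low edge of a tie.

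Factors known to act on the ZRS or on Shh in the limb had a promoter-proximal region at both stages in 20 of 22 cases, against 61.5% of all genes. The others, Hoxa13 and Pbx2, had one at E9.5 only. Of the 20, 9 stood at a higher and 11 at a lower percentile at E10.5, with medians of 85.2 (E9.5) and 79.3 (E10.5). The split over all genes is not given here. Among the 11, Sall4 stood at 96.1 and 64.8 and Tbx2 at 83.2 and 58.4. Hand2, which activates Shh in posterior mesenchyme, stood at percentile 77.7 with a score of 894.81 at E9.5 and at 91.4 with 1364.09 at E10.5. Hoxd13 stood at 63.9 and 50.2, Hoxd12 at 27.6 and 54.1, and Hoxd11 at 49.8 and 61.8. The ETS genes Etv4 and Etv5, induced by FGF, stood at 79.5 and 74.6 and at 99.7 and 97.9. Gata6, a repressor of Shh in the anterior limb bud, stood at 79.4 and 50.8. Without replicate values, none of these differences between the stages has an error.

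Marker genes of limb cells and of other tissues with Shh-expressing cells were examined in the same way, again beside 61.5% of all genes with a region at both stages. All 8 limb mesenchyme markers had a promoter-proximal region at both stages, with Twist1 the highest (2723.76 and 2109.56) and Tbx5 the lowest (89.91 and 74.17). Of 8 limb ectoderm and ridge markers, 5 had one at both stages, Fgf8 at E9.5 only, Krt14 at E10.5 only and Trp63 at neither. Of 8 notochord and floor plate markers, 6 had one at both stages, including Foxa2 (634.81 and 655.73), while T had one at E9.5 only (182.98) and Noto at neither. Of the 6, 2 stood at a higher percentile at E10.5, Foxa2 among them, and 4 at a lower one. Gut endoderm markers had one at both stages in 7 of 8 cases, with Cldn6 at E10.5 only. Neural tube markers had one at both stages in 3 of 4 matched cases, with Dbx1 at E9.5 only. All 3 stood at a lower percentile at E10.5, to unlike extents. Pax6 stood at 96.6 (E9.5) and 94.9 (E10.5), Neurog2 at 95.7 and 67.9, and Olig2 at 69.6 and 10.7. Of the hindlimb markers, Tbx4 and Isl1 had one at both stages and Pitx1 at E9.5 only. Split the same way, limb mesenchyme markers had 4 at a higher and 4 at a lower percentile at E10.5. Limb ectoderm and ridge markers had 2 and 3, gut endoderm markers 2 and 5, and hindlimb markers 1 and 1. Foxa1 and Foxa2 count in both the gut endoderm and the notochord and floor plate lists. The split over all genes is not given here, so these counts have no base to be read against. The part of trunk cells in the regions at Shh was not tested.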

How the data were processed

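ATAC-seq libraries of E9.5 and E10.5 forelimb buds (2 replicates each) were processed by the authors. Reads were aligned to mm9 with Bowtie 1.1.0 (unique matches with at most 2 mismatches), regions were called per replicate with MACS 1.4 without a local background model, and replicates were combined with MSPC (stringent p-value 1e-10, weak p-value 1e-06). Versions follow the submitters' processing notes. The deposited score is described by the authors as the best MACS p-value among overlapping regions, and its values start just above 60, which is the weak limit as -log10 of p times 10. Depth was not given in the sources used here.

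Positions were annotated with GENCODE vM1 on NCBIM37, the assembly of mm9, whose chromosomes hold all regions (0 outside). Starts were those of all transcripts of 22380 protein-coding genes. Introns were numbered on the coding transcript with the longest span. Overlap, counts, gaps and percentiles were computed in Python 3.11.15 with pandas 2.3.3, and Wilson intervals (95%) with scipy 1.17.1. The overlap step was tested on simulated intervals. No test between stages was possible, since each stage is 1 list. Every protein-coding gene of the interval and every region in an Lmbr1 intron were to be named, with the top region and top stage-specific region of each other segment. The members, the gene lists and the 13 motif strings were chosen with earlier results of these data known. The CTCF consensus was added after reading the sequences. The sequence of 1 region is not reported here. Alternatives were the interval, the overlap rule, the promoter distance, the score and lists of equal size.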

Additional observations from a re-analysis of the deposited data

How the results depend on the processing

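In 34 alternatives a count stayed within 1.5 times or a percentage within its interval, and 9 moved it further. The higher-scoring 50% of each list left 4 E9.5 and 3 E10.5 regions in the locus, of which 4 (100%) and 2 were shared, by the construction of the setting. In settings chosen after seeing the data, 1 E10.5 region in Lmbr1 introns was left among the higher-scoring 50% and 1 with lists of equal size, and 4 E9.5 regions were distal. Counting any overlap with an intron of Lmbr1 gave 1 E9.5 region, the one over the Lmbr1 start. The stronger intron 5 region was the one left. No paired analysis was possible because replicates were merged into 1 list, and leaving out single replicates was not run for the same reason. Distances from other Shh starts were not run because Shh has 1 annotated transcript. Depth, which sets what passes the calling limits, is unknown.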
